A study of Mus musculus with 10 samples.

Results

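The genes described are 9 transcription factors that pattern the ventral midbrain, namely Foxa1, Foxa2, Lmx1a, Lmx1b, Msx1, Otx2, En1, En2 and Pax2. They were chosen by gene symbol, and all 9 were found among the 17919 genes of the deposited tables. Ventral midbrain was taken from embryos of the ICR mouse strain at embryonic day 10, and its neural stem cells were transduced with a lentivirus for Lin28a, an RNA-binding protein that blocks let-7 microRNA maturation, or with a mock lentivirus. Both cultures were passaged every 4 days. RNA-seq covered control and Lin28a at passage 1 (P1) and passage 3 (P3), polysome-seq (RNA on ribosomes separated in a sucrose gradient) covered both at P3, and small RNA-seq covered the same 4 states as RNA-seq. Each group was 1 library, so no test, SD or p-value across samples was possible and every difference describes these libraries. Which promoter drove the transgene, how many embryos were pooled and what share of cells was transduced is not stated in the labels.

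Foxa1 and Foxa2 are forkhead factors that open closed chromatin and, downstream of Sonic hedgehog, specify the floor plate, the ventral midline of the neural tube. Lmx1a and Lmx1b are LIM-homeodomain factors that direct floor plate progenitors of the midbrain toward dopamine neurons, and Msx1, a homeodomain factor, acts with Lmx1a in these progenitors. Otx2 sets forebrain and midbrain identity, and En1, En2 and Pax2 act around the boundary of midbrain and hindbrain, with both Engrailed genes also needed to maintain dopamine neurons. These factors are used as the identity code of midbrain dopamine progenitors, which ventral midbrain cultures are known to lose as they are expanded.

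The targeted gene followed the labels in all 6 RNA-seq and polysome libraries. Lin28a was at most 0.128 FPKM in the control RNA-seq libraries and at 104 and 478 FPKM in those of Lin28a at P3 and P1. In polysomes Lin28a was listed at the floor of the table in control and at 17.9 RPKM in Lin28a. FPKM and RPKM are fragments or reads scaled to gene length and library size, so levels of different genes can be compared within a library. As a check of the labelled cell type, 16 of 16 general neural progenitor genes and 20 of 20 other floor plate genes were at 1 FPKM or more in P1 control, where 12433 of all 17919 genes were. Of 35 transcription factors of other neural tube domains, 21 were also at 1 FPKM or more there. The highest was Dbx1 at 118 FPKM, above every member. Some of these domains lie in the midbrain, so the count does not mark RNA from other brain regions. The markers listed for sites outside the floor plate where some of the members are also active were low, apart from Folr1. None of 7 endoderm markers in the table reached 1 in any library. The 10 choroid plexus and roof plate markers summed to between 3.11 and 16.1 over the 6 libraries, most of it from Folr1 (12.1 FPKM in P1 control), and Ttr, the defining choroid plexus gene, stayed under 1.

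The DNA just before the start sites is shown for Otx2 and Foxa2, the factors with the largest and the smallest share of their P1 level at P3 in control. Promoter windows from 250 bases before to 50 after each start (RefSeq, GRCm38.p6) were in the reference for 8 of the 9 genes, all but En2, and comprised 15 start sites. They were searched on both strands for TGTTTAC (forkhead core), TAATTA (homeodomain core, the same on both strands), TAATCC (bicoid core, bound by Otx-type homeodomains), GACCACC (start of the Gli site) and TATAAA. Capitals mark matches, no match overlapped another, and the strand is that of the gene.
Otx2, chr14:48667645-48667894, minus strand: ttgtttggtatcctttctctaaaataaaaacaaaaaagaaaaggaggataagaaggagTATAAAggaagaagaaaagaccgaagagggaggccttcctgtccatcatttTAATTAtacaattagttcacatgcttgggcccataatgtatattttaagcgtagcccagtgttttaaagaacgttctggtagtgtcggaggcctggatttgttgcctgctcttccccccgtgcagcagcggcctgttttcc
Foxa2, chr2:148046970-148047219, minus strand: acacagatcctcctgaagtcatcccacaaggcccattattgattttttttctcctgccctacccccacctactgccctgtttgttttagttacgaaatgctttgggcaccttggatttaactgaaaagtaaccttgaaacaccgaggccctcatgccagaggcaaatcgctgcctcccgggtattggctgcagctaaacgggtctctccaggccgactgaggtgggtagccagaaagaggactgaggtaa
The Otx2 window held a TATAAA and a TAATTA, while this Foxa2 window held none of the 5 motifs. In another Otx2 promoter, 3 homeodomain cores and a bicoid core on the other strand lay within 2 short windows.
Otx2, chr14:48665314-48665343, minus strand: TAATTAagggacgtgtgcccctcGGATTAt
Otx2, chr14:48665256-48665285, minus strand: taTAATTAattctcggacgaggTAATTAtt
Foxa1 was the only one of the 8 genes searched with a forkhead core, on the other strand, beginning at position -141 from its start.
Foxa1, chr12:57546234-57546263, minus strand: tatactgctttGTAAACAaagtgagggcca
Of all 32851 promoters of this length, 3.65% held the forkhead core, 5.29% the homeodomain core, 7.06% the bicoid core, 2.80% the Gli start and 13.6% the TATA box. The homeodomain core was in 2 of the 15 member windows (both Otx2), the TATA box in 2 (Otx2 and the third Foxa2 start) and the Gli start in 0. A match describes letters in the window and is not evidence of binding.

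At P1 the factors formed a graded series of levels that was much alike in both cultures. In P1 control Otx2 was highest at 65.0 FPKM, followed by Foxa1 at 42.7, En2 at 41.8, Lmx1a at 30.4, En1 at 24.5, Foxa2 at 18.4, Lmx1b at 12.8 and Msx1 at 7.49 FPKM. Pax2 stood apart at 0.0748 FPKM and stayed under 0.1 in all 6 libraries, with 0.0647 in P1 Lin28a, the floor of the table in P3 control, 0.0144 in P3 Lin28a, and 0.0233 and 0.0821 RPKM in control and Lin28a polysomes. Pax2 therefore entered no comparison, and the counts below are over the 8 others, which reached 1 in at least 1 library of every pair compared. The order of the 8 was identical in P1 Lin28a, from Otx2 at 72.9 FPKM to Msx1 at 8.28 FPKM. Without replicates it is not known which neighbours in that order differ beyond the spread between cultures. Foxa1 and En2 were closest in P1 control, with a ratio of 1.02.

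**Figure D1:**
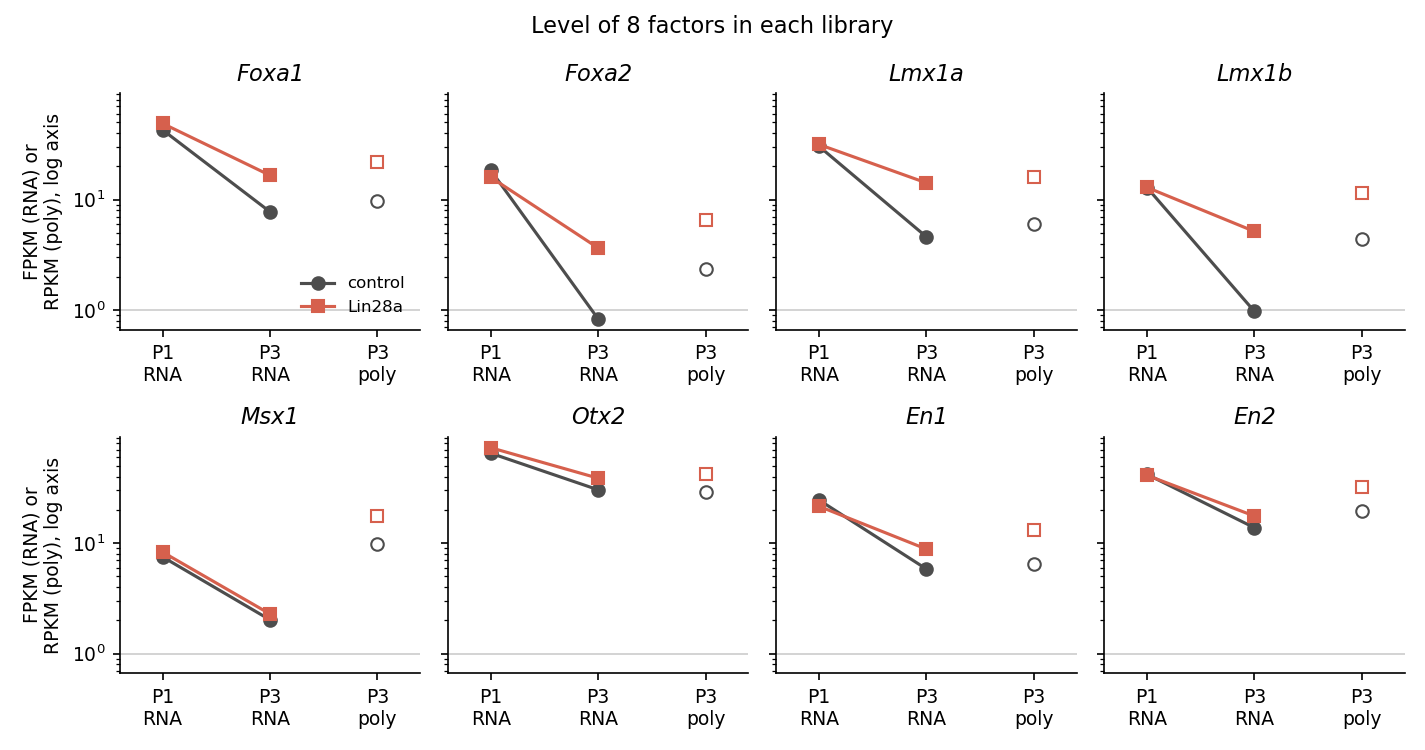
Level of 8 of the 9 factors in each library on a log axis, as FPKM at P1 and P3 in RNA-seq (filled) and RPKM at P3 in polysome-seq (open), control in grey circles and Lin28a in red squares, 1 library per point. The pairs of points lie close together at P1 and separate at P3 most for Foxa2 (0.830 against 3.64) and Lmx1b (0.971 against 5.15), and the grey line marks a level of 1.

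Passaging of control cells went with lower levels of all 8 factors. Every one was lower past 2-fold at P3, with log2 ratios of (value + 1) from -3.40 to -1.07 and a median of -2.11. Of all 13011 genes compared, 8.14% were lower past 2-fold and the median was 0.00. In bulk RNA, fewer cells of a type and less RNA per cell cannot be told apart. Foxa2 went from 18.4 to 0.830 FPKM and kept 4.52% of its P1 level, the smallest share of the 8. Lmx1b went from 12.8 to 0.971 FPKM and kept 7.57%. Both of these genes ended just under 1 FPKM, where their levels rest on few reads. Lmx1a went from 30.4 to 4.61 FPKM (15.2% kept) and Foxa1 from 42.7 to 7.75 FPKM (18.2% kept). Msx1 and the 3 factors of the anterior-posterior axis (Otx2, En1 and En2) kept more.
En1 went from 24.5 to 5.83 FPKM, Msx1 from 7.49 to 2.02, En2 from 41.8 to 13.8 and Otx2 from 65.0 to 30.3 FPKM. The shares kept were 23.8% for En1, 26.9% for Msx1, 32.9% for En2 and 46.7% for Otx2. Among all genes compared in control, 0.223% had a log2 ratio as low as that of Foxa2 or lower. The same share was 0.546% for Lmx1b, 0.853% for Lmx1a, 1.12% for Foxa1, and between 2.06% and 7.06% for the other 4.

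In the Lin28a culture all 8 factors were lower at P3 by any amount, where 51% of 12850 genes were, but most of them by less than in control. Past 2-fold lower were 7 of 8, against 4.8% of all genes, with log2 ratios from -1.86 to -0.90 and a median of -1.19. Otx2, at -0.90, was the eighth. Foxa2 went from 15.9 to 3.64 FPKM and kept 22.9% of its P1 level, again the smallest share. Foxa1 went from 48.8 to 16.6 FPKM (33.9% kept), Lmx1b from 12.9 to 5.15 (40.0%) and Lmx1a from 31.5 to 14.2 (44.9%). Each Foxa and Lmx gene thus kept a larger share than in control. En1 went from 21.5 to 8.83 FPKM (41.0%), En2 from 41.0 to 17.6 (42.8%) and Otx2 from 72.9 to 38.7 (53.0%). Msx1 was the exception, at 8.28 and 2.28 FPKM, with 27.5% kept against 26.9% in control.

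**Figure D2:**
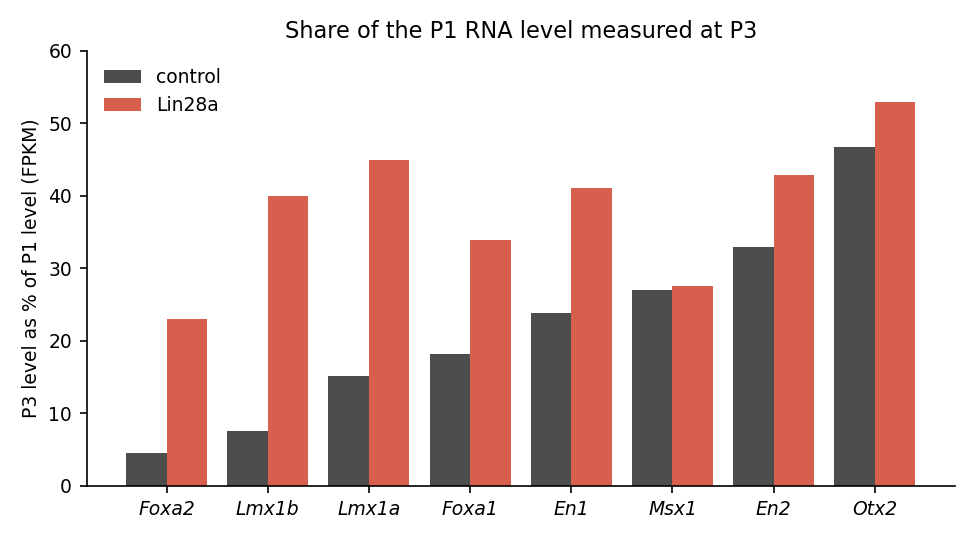
Level at P3 as a percentage of the level at P1 (FPKM) for 8 factors, ordered by the control value, with control in grey and Lin28a in red, 1 library per passage and culture. In control the share ranged from 4.52% for Foxa2 to 46.7% for Otx2, in Lin28a from 22.9% to 53.0%, and the bars of Msx1 are nearly equal at 26.9% and 27.5%.

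The difference between the passage ratios of the cultures was taken for each gene, as Lin28a minus control on the log2 scale. It was 1.64 for Lmx1b, 1.54 for Foxa2, 1.38 for Lmx1a, 0.82 for Foxa1, 0.71 for En1, 0.36 for En2, 0.18 for Otx2 and -0.01 for Msx1. The first 3 named of these 8 were past 2-fold, against 1.55% of 13138 genes, and the median was 0.76 against 0.00 for all genes. Ratios between 2 factors inside a library do not depend on how the library was scaled, and they moved as well. Foxa1 was 2.32 times Foxa2 in P1 control and 9.33 times in P3 control, against 3.07 and 4.55 in Lin28a. Otx2 was 3.54 times Foxa2 in P1 control and 36.5 times in P3 control, against 4.59 and 10.6 in Lin28a. For Lmx1a over Lmx1b the values were 2.37 and 4.74 in control and 2.45 and 2.75 in Lin28a. Each of these ratios was thus largest in P3 control among the RNA-seq libraries. The levels of Foxa2 (0.830 FPKM) and Lmx1b (0.971 FPKM) that they were divided by there rest on few reads. The ratio of En2 to En1 was 1.70 and 2.36 in control and 1.90 and 1.99 in Lin28a. In polysomes at P3 the ratio of Otx2 to Foxa2 was 12.2 in control and 6.55 in Lin28a, that of Foxa1 to Foxa2 was 4.15 and 3.35, and that of En2 to En1 was 3.05 and 2.49. Lmx1a over Lmx1b was nearly equal there, at 1.35 and 1.38.

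At P1, Lin28a and control cultures differed little in these genes. None of the 8 was past 2-fold in either direction, where 0.231% of 12564 genes were, and the log2 ratios ran from -0.20 for Foxa2 to 0.19 for Foxa1, with a median of 0.03 (all genes -0.01). By any amount 5 of the 8 were higher and 3 lower, where 48.4% of all genes were higher.

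At P3 all 8 factors were higher in Lin28a than in control by any amount, where 48.5% of 12716 genes were. Past 2-fold were 4, against 1.31% of all genes, and the median log2 ratio was 0.77 against -0.01. These 4 were the Foxa and Lmx genes. Lmx1b had the highest ratio (1.64), from 0.971 FPKM in control and 5.15 in Lin28a, a 5.30-fold difference before the pseudocount. Lmx1a followed (1.44, 3.08-fold), then Foxa2 (1.34, 4.39-fold) and Foxa1 (1.01, 2.14-fold), the last only just past the threshold. The remaining ratios were 0.52 for En1, 0.34 for Otx2, 0.33 for En2 and 0.12 for Msx1. This comparison and the passage comparison in control use the same P3 control library, so a low estimate there would enter both.

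Polysome-seq used other libraries of the same culture states, and all 8 factors were again higher in Lin28a. Past 2-fold were 4, against 0.952% of 12289 genes, and by any amount 62.8% of all genes were higher in these libraries. The median of the 8 was 1.00 against 0.06 for all genes. Control and Lin28a polysomes held Lmx1a at 5.98 and 15.9 RPKM (log2 ratio 1.28), and Lmx1b at 4.43 and 11.5 (1.20). Foxa2 was at 2.36 and 6.47 RPKM (1.15), and Foxa1 at 9.78 and 21.7 (1.07). The same 4 genes were thus past 2-fold in both assays at P3 on the scale of (value + 1). Before the pseudocount En1 was also 2.02-fold higher in Lin28a polysomes. En1 was at 6.42 and 13.0 RPKM (0.92), Msx1 at 9.80 and 17.6 (0.78), En2 at 19.6 and 32.4 (0.70), and Otx2 at 28.7 and 42.4 (0.55). Msx1 differed most between assays among these 4, with a ratio near 0 in RNA-seq and 0.78 in polysomes.

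**Figure D3:**
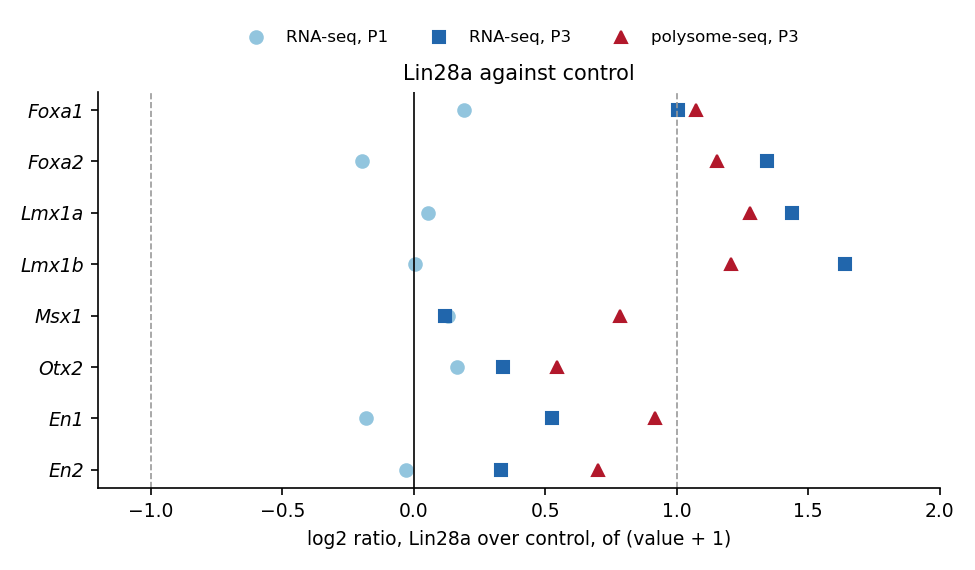
Log2 ratio of Lin28a over control, of (value + 1), for 8 factors in RNA-seq at P1 (light circles), RNA-seq at P3 (blue squares) and polysome-seq at P3 (red triangles), with dashed lines at 2-fold. All P1 points lie between -0.20 and 0.19, while Foxa1, Foxa2, Lmx1a and Lmx1b lie past 2-fold in both P3 assays.

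The difference between the assays at P3, taken as the polysome log2 ratio of Lin28a to control minus that of RNA-seq, was set beside all genes for the 4 factors at 5 or more in all 4 libraries. It was 0.39 for En1, 0.37 for En2, 0.21 for Otx2 and 0.07 for Foxa1, with 0 of 4 past 2-fold against 0.358% higher and 0.0512% lower among 7817 genes. All 4 were above 0, as were 60.7% of those genes, and the median was 0.29 against 0.07. The other 4 were under 5 in P3 control RNA-seq, so this minimum left out the factors that were lowest there. Their differences, which rest on low levels, were -0.19 for Foxa2, -0.16 for Lmx1a, -0.44 for Lmx1b and 0.66 for Msx1, so 3 of these 4 were below 0. Over all 8 factors the median was 0.14. The assays were normalized separately, so levels are only set side by side: in control at P3, Msx1 was at 2.02 in RNA-seq against 9.80 in polysomes, and Otx2 at 30.3 against 28.7.

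Lmx1b and Msx1 share their loci with other transcripts in the RefSeq gene table. The library kit in the labels marks strand, but whether counting used it is not given in the sources used here, so reads of overlapping genes may be mixed. C130021I20Rik, which overlaps Lmx1b, read 25.1 and 1.89 FPKM at P1 and P3 in control, 22.3 and 7.44 in Lin28a, and 4.86 and 12.7 RPKM in control and Lin28a polysomes. Like Lmx1b it was lower at P3 in both cultures and higher in Lin28a in both P3 assays. Msx1os, the antisense transcript of Msx1, read 16.5 and 3.41 FPKM at P1 and P3 in control and 16.9 and 5.11 in Lin28a. In polysomes Msx1os was at 0.0215 RPKM in control and at the floor in Lin28a, where Msx1 itself was at 9.80 and 17.6.

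The genes around these factors followed only in part. The other floor plate genes, which include the ligand Shh and its targets, were lower past 2-fold at P3 in 13 of 20 cases in control (median -1.49) and 10 of 20 in Lin28a (median -0.88). Shh read 50.6 and 2.64 FPKM at P1 and P3 in control, and 45.3 and 6.24 in Lin28a. At P3, 3 of 20 were higher past 2-fold in Lin28a (Dlk1, a Notch-like transmembrane protein, at 1.81, the axon guidance ligand Slit2 at 1.07 and the bHLH factor Ferd3l at 1.05), with a median of 0.47. In polysomes 3 of 18 were, namely Dlk1 (1.53), Slit2 (1.34) and Shh (1.34), with a median of 0.52. Genes of boundary signalling and Wnt include some, but not only, genes that act upstream of En1, En2 and Lmx1a. Of these boundary and Wnt genes, 10 of 19 were lower past 2-fold in each culture, with medians of -1.62 (control) and -1.49 (Lin28a). Their median ratio of Lin28a to control at P3 was -0.05 in RNA-seq and 0.04 in polysomes. Past 2-fold higher in Lin28a were 2 of 13 in RNA-seq, the Wnt pathway transcription factor Lef1 (1.32) and the secreted Wnt enhancer Rspo2 (1.16), and 3 of 16 in polysomes, Lef1 (1.35), Wnt1 (1.04) and Rspo2 (1.03). Wnt1 was listed at the floor in P3 control and at 0.270 FPKM in P3 Lin28a, after 5.74 and 10.0 FPKM at P1.

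Dopamine lineage genes, several of them targets of these factors, were lower past 2-fold in 9 of 16 cases in control (median -1.19) and 6 of 16 in Lin28a (median -0.57). Sox6, a factor of the dopamine lineage that is also active in glial precursors, was higher past 2-fold in both (1.82 and 2.03). At P3, 4 of 13 were higher past 2-fold in Lin28a and none lower (median 0.58). Neurog2, the proneural gene downstream of Lmx1a and Msx1, read 57.5 and 0.750 FPKM at P1 and P3 in control and 64.1 and 9.03 in Lin28a (log2 ratio of Lin28a to control at P3 2.52). The others past 2-fold were Ebf3 (1.46), Foxp2 (1.22) and Th (1.06), and Th reached only 1.35 FPKM. In polysomes 2 of 12 were higher past 2-fold, Neurog2 (2.68) and Foxp2 (1.13). Pitx3, a factor of mature dopamine neurons, was under 1 FPKM in all 4 RNA-seq libraries.

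By their medians in RNA-seq, neuron markers moved in the same direction as the factors between passages and between cultures at P3. Astrocyte and oligodendrocyte markers moved the opposite way. The part of these cell types in the result was not tested. Of 10 neuron markers, 9 were lower past 2-fold at P3 in control (median -2.38) and 6 in Lin28a (median -1.10), and 4 were higher past 2-fold in Lin28a at P3 (Tubb3, Dcx, Elavl4 and Stmn2, median of the list 0.87). Their summed level was 1100 FPKM in P1 control, 931 in P1 Lin28a, 283 in P3 control and 484 in P3 Lin28a, and 251 and 291 RPKM in control and Lin28a polysomes. All 8 astrocyte markers were higher past 2-fold at P3 in both cultures, where 11.5% of all genes were in control and 8.38% in Lin28a. Their sum went from 199 to 1598 FPKM in control and from 148 to 869 in Lin28a, and at P3 Gfap, Aqp4 and Agt, 3 of the 8, were lower past 2-fold in Lin28a, against 1.34% of all genes. All 9 measured oligodendrocyte markers were higher at P3 as well, with sums from 186 to 2074 FPKM in control and from 112 to 1272 in Lin28a. All 9 were lower in Lin28a than in control at P3 (median -0.54), 1 of them, Olig1, past 2-fold (-1.10). By any amount, 6544 of 12716 genes were lower in that comparison. The 16 general neural progenitor genes had medians of 0.53 and 0.52 between passages in control and Lin28a, and of -0.02 between Lin28a and control at P3. These medians cover changes both ways. Past 2-fold at P3, 5 were higher and 3 lower in control, and 4 and 2 in Lin28a, where 8.14% and 4.8% of all genes were lower. In control they ran from -2.89 (Zic1) to 1.89 (Hes5). Between cultures at P3 they ran from -0.96 (Fabp7) to 0.85 (Prom1), with none past 2-fold. At P1, lower in Lin28a by any amount were 10 of 10 neuron markers (median -0.28), 8 of 8 measured oligodendrocyte markers (median -0.63) and 4 of 5 measured astrocyte markers (median -0.42), with none past 2-fold. Of all genes compared at P1, 6477 of 12564 were lower by any amount. Mesenchyme and neural crest markers had 6 of 10 measured, with 3 lower and 1 higher past 2-fold in control, and of the endothelial and microglial markers Kdr alone reached 1.

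**Figure D4:**
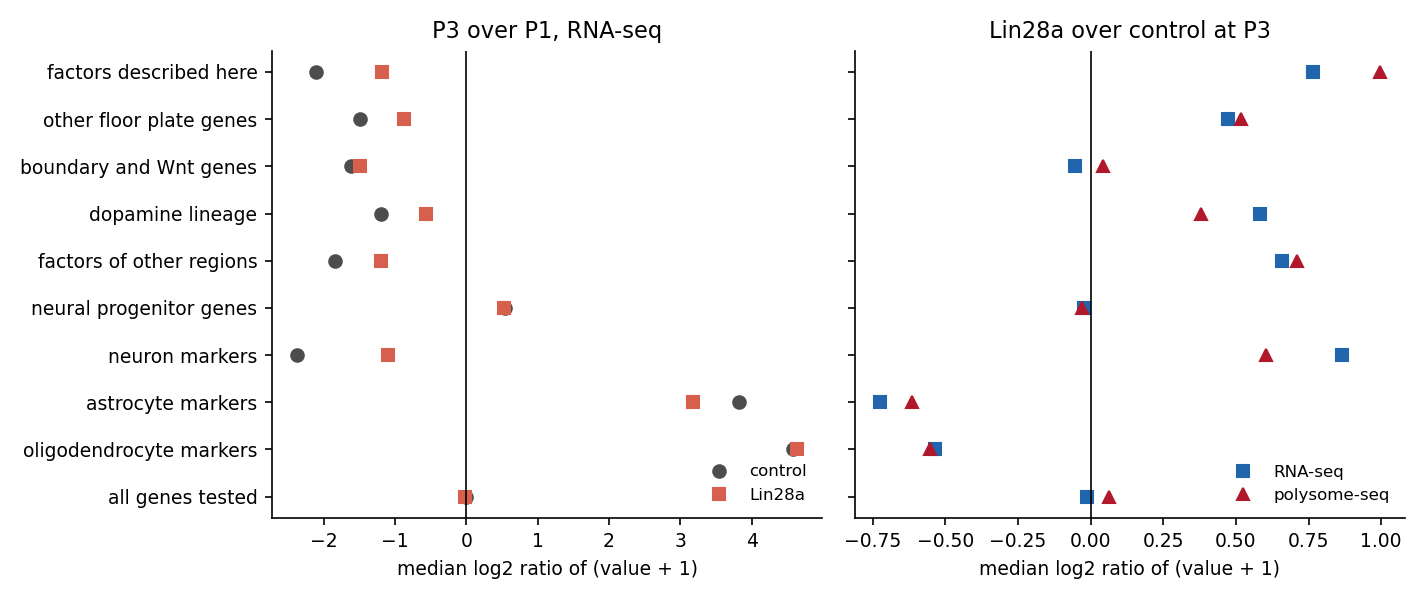
Median log2 ratio of (value + 1) for the 8 factors and for lists of related or marker genes, on the left between P3 and P1 in control (grey circles) and Lin28a (red squares), on the right between Lin28a and control at P3 in RNA-seq (blue squares) and polysome-seq (red triangles). The factors lie at -2.11 and -1.19 on the left and at 0.77 and 1.00 on the right, while all genes tested lie near 0.

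Genes with the most similar pattern were found by Euclidean distance over the 6 libraries, on log2(value + 1) centred within each assay, among 10781 genes at 5 or more in at least 1 library. For Lmx1a the 3 nearest included the non-coding RNA Rmst (distance 0.16) and Runx1t1 (0.17), and Lmx1b was the nearest other member (0.25). Rmst read 11.2 and 0.972 FPKM at P1 and P3 in control and 10.7 and 5.08 in Lin28a. For Foxa2 the nearest were genes known from neurons, Cntn2 (0.13), Ina (0.18) and St8sia2 (0.23). For En1 they were Pcgf2 (0.14), Stmn1 (0.15) and Tub (0.19), and for Otx2 Pkdcc (0.07), Hnrnpa0 (0.08) and Taf7 (0.09). With 6 libraries that share cultures, these distances describe the tables and nothing more.

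The microRNA miR-135a, known to target Lmx1b in the midbrain, was read in the small RNA libraries. Its mature sequences from RefSeq (GRCm38.p6) are given with the seed, bases 2 to 8, in capitals, because the 3p arms tell its 2 genes apart while the 5p arm does not.
miR-135a-5p, from both genes: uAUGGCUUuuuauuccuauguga
miR-135a-1-3p, chr9:106154179-106154200, plus strand: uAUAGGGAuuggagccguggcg
miR-135a-2-3p, chr10:92072104-92072124, minus strand: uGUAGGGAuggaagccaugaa
The 5p arm was at 5944 CPM (counts scaled to the library's summed microRNA counts, 95% exact Poisson interval 5884 to 6004) in P1 control and 753 (734 to 772) in P3 control. In Lin28a it was at 3215 CPM (3176 to 3253) at P1 and 1046 (1025 to 1068) at P3. The P3 level was thus 12.7% of the P1 level in control and 32.6% in Lin28a. Past 2-fold lower were 29% of 428 microRNAs in control and 17.7% of 424 in Lin28a. Between cultures the 5p arm had a log2 ratio of -0.89 at P1 and 0.47 at P3. At P1 the 3p arms of both genes went the other way, at 1.78 (miR-135a-1-3p) and 1.16 times (miR-135a-2-3p) the control level. At P3 both 3p arms were higher in Lin28a as well, at 1.11 and 2.31 times control. Intervals cover counting error only, and a microRNA with 2 genes may be counted at each.

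The arms of the 2 genes differed in how much was left at P3. miR-135a-2-3p read 106 and 14.4 CPM at P1 and P3 in control and 123 and 33.1 in Lin28a, so that 13.5% and 27.0% were left. miR-135a-1-3p read 98.1 and 72.9 CPM in control and 175 and 80.5 in Lin28a, with 74.3% and 46.1% left. The gene of miR-135a-2 neighbours Rmst, the RNA listed above among those nearest to Lmx1a in pattern. Rmst kept 8.67% of its P1 level in control and 47.7% in Lin28a. The gene of miR-135a-1 overlaps Glyctk, which kept 22.0% in control and 39.3% in Lin28a, the opposite order to miR-135a-1-3p. The related miR-135b-5p read 740 and 60.7 CPM at P1 and P3 in control and 615 and 122 in Lin28a, with 8.20% and 19.8% left.

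**Figure D5:**
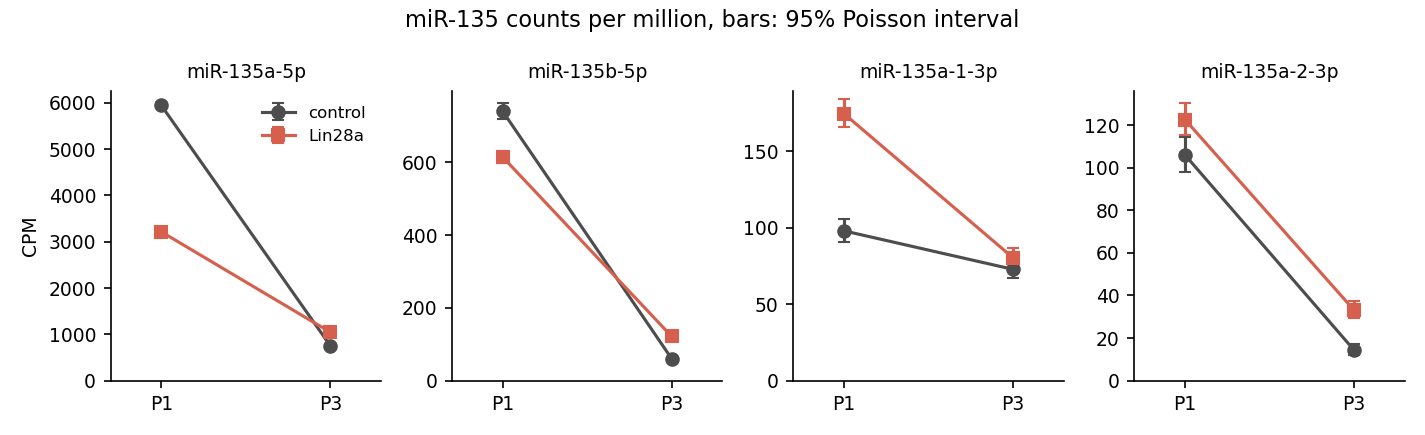
CPM of miR-135a-5p, miR-135b-5p and the 3p arms of the 2 miR-135a genes at P1 and P3, control in grey circles and Lin28a in red squares, with 95% exact Poisson intervals that cover counting error only and separate axes from 0. All 4 were lower at P3 in both cultures, and miR-135a-1-3p in control changed least, from 98.1 to 72.9 CPM.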

How the data were processed

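Bowtie 1.0.0, TopHat2 2.0.6, Cufflinks 2.1.1 and build mm9 are named per the submitters' processing notes, without saying which step used which. The authors deposited 1 FPKM value per gene for 4 RNA-seq libraries and 1 RPKM value per gene for 2 polysome libraries. The headers name no unit, and both were read from the tools and the values. Per the file headers, the small RNA tables give the count of reads on a mature microRNA, here scaled to CPM. Sample labels give poly(A) selection, while the library kit named is a stranded one for total RNA. Total depth of the gene tables is unknown, and the most frequent ratio of low values between paired libraries (1.01 to 1.16), found in a minority of low genes, is only a rough guide to relative depth. Small RNA totals ran from 6322534 to 8542827 counts.

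A comparison took the genes that reached 1 in either library. Ratios are log2 of (value + 1), which understates changes of low genes, and 2-fold on that scale was the threshold. The polysome to RNA ratio needed 5 or more in all 4 libraries. MicroRNAs entered at 10 CPM in 1 of the 2 libraries, with ratios of (CPM + 1). Named are all members, up to 4 genes per list and comparison with the largest ratio, and the 3 nearest genes in pattern for 4 members, of which 1 is not reported here. Folr1, Ttr, Pitx3, Foxa3, Msx3, Pax5, the Hox genes and the overlapping and neighbouring genes were named after their values were seen. The members, lists and settings were chosen with earlier results of these data known. RefSeq gene names and neighbours are from GRCm38.p6, and no coordinates of mm9 are given. Alternatives were another pseudocount, other filters, 2 scalings and a 1.5-fold threshold. The functions were tested on simulated data. Values were computed in Python 3.11.15 with pandas 2.3.3 and numpy 2.4.6, intervals with scipy 1.17.1, and plots with matplotlib 3.10.9.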

Additional observations from a re-analysis of the deposited data

Results flagged for a closer look

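Of the 8 factors, 3 had ratios of Lin28a to control of opposite sign at P1 and P3 in RNA-seq, with 1 library per group, and the difference was not tested. For Foxa2 the log2 ratio was -0.20 at P1 and 1.34 at P3, a difference of 1.54. For En1 it was -0.18 and 0.52, a difference of 0.71, and for En2 -0.03 and 0.33, a difference of 0.36. The P1 ratios were all small.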

How the results depend on the processing

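No paired analysis was possible because each group held 1 library. The count of factors higher past 2-fold with Lin28a in polysomes was 4 and became 7 at a 1.5-fold threshold. With a pseudocount of 0.1 it became 5, with En1 added (1.01). The other counts and, on the fold scale, the medians of the factors moved by less than 1.5 times under a pseudocount of 0.1, no filter, a filter of 5 (10 for the polysome to RNA ratio), both scalings and the lower threshold. With the filter of 5, Foxa2 and Msx1 left the P3 comparison of Lin28a and control, and 3 factors were past 2-fold. With a pseudocount of 0.1 the 2 factors under 1 FPKM in P3 control moved most. Foxa2 went to -4.31 for passage in control and 2.01 for Lin28a at P3, and Lmx1b to -3.59 and 2.29. Without a filter Pax2, near the floor, also enters and the medians are over 9 genes (0.52 for Lin28a at P3). The median polysome to RNA change, 0.29 over 4 factors, became 0.07 over 9 genes without a filter, 0.14 over the 8 without Pax2 (added after the data were seen) and 0.17 under upper quartile scaling. One sign changed, that of Lmx1b at P1, near 0, under upper quartile scaling. The microRNA ratios between passages, recomputed without the 10 most abundant microRNAs after the data were seen, moved by less than 1.5-fold. Levels near 1 FPKM rest on few reads, and their counting error is unknown.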

Other observations

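The closest relatives of the factors were few and mostly low. Otx1, the paralog of Otx2, read 21.4 and 13.2 FPKM at P1 and P3 in control and 21.6 and 13.2 in Lin28a, so its level at P3 was the same to 3 digits in both cultures. Pax8, a paralog of Pax2, read 2.24 and 0.174 FPKM at P1 and P3 in control and 2.67 and 0.613 in Lin28a. Foxa3, Msx3 and Pax5 stayed under 1 in all 6 libraries.

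Transcription factors of other neural tube domains, some of them within the midbrain, were present beside the factors described here. Of the 35 measured, 21 were compared between passages, and 14 were lower and 2 higher past 2-fold at P3 in control (median -1.85), against 13 and 3 in Lin28a (median -1.21). At P3, 5 of 15 were higher in Lin28a and 1 lower past 2-fold, with a median of 0.66, against 0.77 for the 8 factors described here. Gata2, a factor of GABAergic neurons of the midbrain, read 4.16 FPKM at P1 and the floor of the table at P3 in control, and 4.90 and 1.89 in Lin28a. Dbx2 went the other way, with log2 ratios of 3.47 for passage in control and -1.52 for Lin28a at P3. The 6 Hox genes of the hindbrain and spinal cord in the tables stayed under 1 in every library.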
